A study of Mus musculus with 4 samples.

Results

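Copying the genome needs proteins that open origins and unwind DNA, polymerases with their sliding clamp, enzymes that join the lagging strand, a supply of deoxynucleotides, and chaperones that rebuild chromatin behind the fork. Most of these genes are switched on by E2F transcription factors as a cell enters S phase. In the liver many of them are low in resting hepatocytes and are induced after partial hepatectomy, as the hepatocytes left behind begin to divide. Described here are 49 such genes, chosen by symbol for these roles with earlier results of these data known. Probe sets with a single platform gene symbol were averaged per gene, and 44 of the 49 had a value among 10923 genes in all. Gins2, Gins3, Tyms, Chaf1a and Clspn had no probe set with a single symbol in the table.

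The donors of the livers were male C57BL6/J mice, 6 to 13 weeks of age. All of them received a single injection of siRNA in Invivofectamine 3.0, a lipid carrier that delivers to the liver, and lost 40% of the liver 3 days later. The remaining liver was taken 48 hours after this partial hepatectomy, so the controls were regenerating too and no resting liver was measured. There were 2 siOrm arrays, from mice given siRNA against Orm1, which encodes the acute phase protein orosomucoid, and 2 siControl arrays, from mice given a control siRNA. The number in each siOrm title is read as a replicate number, since the other labels give both arrays the same treatment, although it could also be read as part of a gene name. The question of the series was which genes Orm1 acts on in the regenerating liver. The labels do not tell 1 mouse per array from a pool of mice, so the p-values cover only the spread between samples, and that spread could be technical. The labels' protocols speak of cultured cells and of another maker's labelling, which leaves the laboratory steps uncertain.

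Each value below is a log2 signal relative to the median of the 4 arrays for the same probe set, with base 2 assumed. Signal levels are therefore not visible, genes cannot be ranked by expression, and hepatocyte markers could not be used to check the tissue. In a gene with 1 probe set the 2 middle arrays lie at equal distances on either side of 0. Differences are siOrm minus siControl, tested with limma and adjusted over all genes by the Benjamini-Hochberg method. The targeted gene checks the labels only weakly. Orm1 stood at -0.24 and -0.015 in the siOrm arrays, against 0.015 and 0.19 in the siControl arrays, a difference of -0.23 (SE 0.15). Its paralogs Orm2 and Orm3 differed by -1.08 and -0.91, and none of these 3 genes passed the test (limma, adjusted p = 0.994). With siControl replicate 2 left out the differences were -0.14 for Orm1, -0.71 for Orm2 and -0.39 for Orm3. With siOrm replicate 1 left out they were -0.12 for Orm1 and -0.69 for Orm2. The 4 arrays were unequally spread. In siControl replicate 2, 137 genes lay above 1, against 12 in siOrm replicate 1, 0 in siOrm replicate 2 and 12 in siControl replicate 1.

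None of the 44 genes passed the test, and none of all 10923 genes did (limma, 0% called each way; the smallest adjusted p among the 44 was 0.994). By value most of them were lower in the siOrm livers. The difference was negative for 38 of the 44 (86.4%), where 47.8% of all genes were negative, and the median difference was -0.26, against 0.0080 over all genes. A gene is called separated below here where each siOrm value is under each siControl value, and separated above in the opposite case. Of the 44, 24 (54.5%) were separated below, against 15.3% of all genes. Another 4 (9.09%) were separated above, against 17.0% of all genes, and those 4 were Gins4, Orc5, Rpa3 and Tk1. At an unadjusted p under 0.05, 7 of the 44 were lower and 0 higher, where 2.58% of all genes were lower and 2.18% higher. Those 7 were Uhrf1, Rrm2, Pold3, Prim1, Rpa2, Pcna and Lig1. In RNA from whole liver, fewer cells in S phase and less RNA per cell cannot be told apart.

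**Figure D1:**
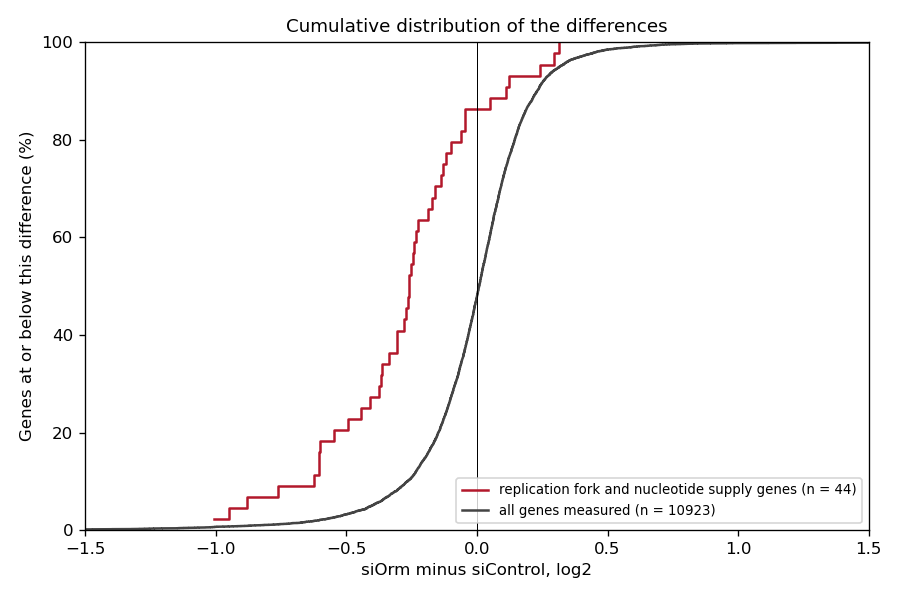
Cumulative share of genes (vertical axis, percent) at or below each difference between siOrm and siControl (horizontal axis, log2, drawn from -1.5 to 1.5), for the 44 replication genes in red and all 10923 genes in grey. The red line reaches 86.4% at 0, where the grey line is at 47.8%.

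These shares rested unevenly on the 4 arrays. The median of the 44 genes was -0.15 in siOrm replicate 1 and -0.035 in siOrm replicate 2, against 0.046 in siControl replicate 1 and 0.21 in siControl replicate 2. The highest value of a gene lay in siControl replicate 2 for 31 of the 44, a place that array took in 28.1% of all genes. The lowest lay in siOrm replicate 1 for 26 of the 44, against 28.4% of all genes. The control arrays also differed from each other. In 34 of the 44 (42.9% of all genes) siControl replicate 2 was above siControl replicate 1, and the median over the 44 was 0.22. Against siControl replicate 1 alone, siOrm replicate 1 was lower in 37 of the 44 (53.7% of all genes). Against the same array, siOrm replicate 2 was lower in 28 (51.1% of all genes). Without siControl replicate 2 the median difference was -0.18, and both siOrm arrays lay below siControl replicate 1 for 27 of the 44, against 36.8% of all genes. Leaving out siControl replicate 2 made the difference smaller by over 1.5 times, or turned its sign, in 23 of the 44. That was close to the share of all genes, 49.4%. Without siOrm replicate 1 this held for 16 (44.1% of all genes). It held for 4 without siControl replicate 1 (27.9% of all genes) and for 6 without siOrm replicate 2 (23.5% of all genes). Without siControl replicate 1 the median was -0.35, and 5 of the 44 passed the test as lower (1.68% of all genes did) and 0 as higher (0.421% of all genes). That fit sets the 2 siOrm arrays against siControl replicate 2 alone. The 5 were Rrm2, Timeless, Fen1, Lig1 and Uhrf1, with adjusted p from 0.0188 to 0.0405 (limma). A variance prior with a trend called none of the 44, with 0.0732% of all genes lower and 0.0275% higher. In centred values that trend runs over each gene's mean of the 4 arrays, which is not its signal level.

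Markers of macrophages, endothelial cells and stellate cells had their highest means in siControl replicate 2. The 12 macrophage markers measured, of 12 listed, had a mean of -0.037 and -0.021 in the siOrm arrays, against -0.26 in siControl replicate 1 and 0.88 in siControl replicate 2. Of them, 11 were highest in siControl replicate 2; the exception was Adgre1. Clec4f, which marks resident Kupffer cells, stood at 0.62 in siControl replicate 2 and -0.16 in siControl replicate 1, and Cd14 at 2.79 and -0.22. The 9 neutrophil markers measured, of 10 listed, were uneven. Their means were -0.10 and -0.064 in the siOrm arrays, against 0.10 and 0.62 in the siControl arrays. In siControl replicate 2 their median was -0.010, and 4 of the 9 were highest there. S100a8 stood at 2.75, S100a9 at 1.95 and Lcn2 at 1.26 in that array, while the granule genes Mpo, Elane, Ngp, Camp and Ltf lay between -0.27 and -0.011. Endothelial and stellate markers, 6 of 7 measured for each, both averaged 0.32 in siControl replicate 2, and elsewhere their means ran from -0.15 to 0.077. The 8 T and B cell markers measured, of 9 listed, averaged -0.19 in that array. Erythroid markers, 3 measured of 8 listed, had means of 0.39 and 0.090 in the siOrm arrays, against -0.094 and -0.18 in the siControl arrays. Of the 3, 2 were separated above (17.0% of all genes), and the median difference was 0.49. The arrays of the groups overlapped for Epb42, which differed by 0.0215. Alas2, which makes the first step of heme synthesis in red cells, stood at 0.43 and 0.27 in the siOrm arrays, against -0.28 and -0.27 in the siControl arrays, a difference of 0.62 (unadjusted p = 0.00432, adjusted p = 0.994, limma). Of the 4 biliary markers measured, of 5 listed, 2 were separated above (17.0% of all genes) and 1, Sox9, below (15.3% of all genes). Their median difference was 0.21. The 5 hepatocyte markers measured, of 6 listed, had means from -0.098 to 0.0020 over the 4 arrays. Which of these markers are absent cannot be seen in centred values. The part of these cells in the values of the replication genes was not tested.

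**Figure D2:**
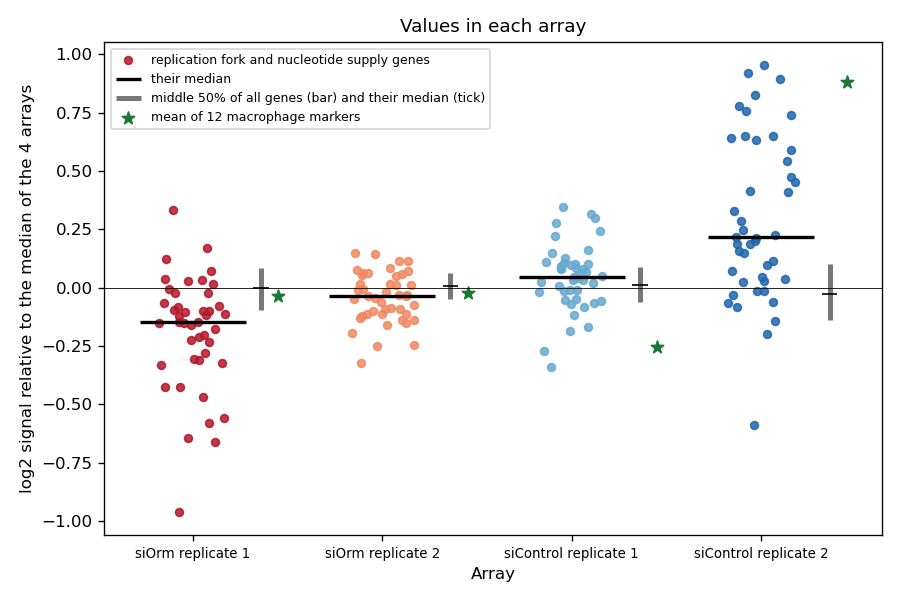
Log2 signal relative to the median of the 4 arrays (vertical axis) in each array (horizontal axis). Points are the 44 replication genes, black lines their medians (-0.15, -0.035, 0.046 and 0.21 from left to right), grey bars the middle 50% of all genes and stars the mean of 12 macrophage markers, which is highest (0.88) in siControl replicate 2.

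Origin activation showed small differences in both directions. Cdc45 and the 4 GINS proteins join the MCM ring to form the replicative helicase, and Mcm10 helps to set it moving. Cdc45 stood at -0.067 and -0.25 in the siOrm arrays, against 0.067 and 0.097 in the siControl arrays. Gins1 stood at -0.024 and -0.091 in the siOrm arrays, against 0.024 and 0.33 in the siControl arrays. For both genes the siOrm arrays were the lower pair, with differences of -0.24 (SE 0.14) and -0.23 (SE 0.16). That of Gins1 was -0.081 without siControl replicate 2, and that of Cdc45 -0.15 without siOrm replicate 2. Gins4 differed by 0.11, with both siOrm arrays above. Mcm10 went its own way among these genes, at -0.15 and 0.15 in the siOrm arrays, against 0.35 and -0.59 in the siControl arrays. It was highest in siControl replicate 1 and lowest in siControl replicate 2, so the controls spanned both siOrm arrays. Its difference of 0.12 (SE 0.32) turned to -0.35 without siControl replicate 2.

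Cdc7 and its activating partner Dbf4 form the kinase that fires licensed origins. Cdc7 stood at 0.035 and -0.035 in the siOrm arrays, against 0.040 and -0.14 in the siControl arrays, and the groups overlapped. Dbf4 was low in siOrm replicate 1 alone, at -0.65 and 0.14 in the siOrm arrays, against 0.033 and -0.033 in the siControl arrays. Its difference of -0.25 was 0.14 without that array. The origin recognition complex marks the sites where the helicase is loaded, and several of its subunits are kept through the cell cycle. Orc2 stood at -0.23 and -0.060 in the siOrm arrays, against 0.078 and 0.16 in the siControl arrays, a difference of -0.26 (SE 0.14). Orc5 stood at 0.12 and 0.062 in the siOrm arrays, against -0.34 and -0.062 in the siControl arrays, a difference of 0.29 (SE 0.15). Both genes were separated by group, in opposite directions, and without siControl replicate 1 Orc5 differed by 0.15. Orc3 differed least among the complex, by -0.047 (95% interval from -0.36 to 0.26), and Orc4 and Orc6 differed by -0.10 and -0.19 with overlapping arrays.

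Pcna is the sliding clamp that holds polymerases on DNA, and Rfc1 to Rfc5 form the loader that opens it. Pcna stood at -0.31 and -0.11 in the siOrm arrays, against 0.11 and 0.29 in the siControl arrays. The arrays of the groups were evenly spaced, and the difference was -0.41 (SE 0.15, 95% interval from -0.77 to -0.042). All 5 loader genes had negative differences, between -0.61 for Rfc4 and -0.12 for Rfc5, and only Rfc2 (-0.22) was separated by group. Rfc4 stood at -0.56 and 0.052 in the siOrm arrays, against -0.052 and 0.76 in the siControl arrays. Its ends were siOrm replicate 1 and siControl replicate 2, while the middle arrays lay in the opposite order to the groups, and its difference was -0.20 without siControl replicate 2. Rfc3, at -0.36, had its lowest value in siOrm replicate 1 (-0.58) and differed by -0.033 without it. The difference of Rfc1 came from a single probe set. That probe set stood at 2.04 in siControl replicate 2 and gave a difference of -0.97, while the other two gave 0.13 and 0.028. Without siControl replicate 2 the difference of Rfc1 was 0.19.

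All 10 polymerase genes had negative differences, 7 of the 10 were separated below (15.3% of all genes), and the median difference was -0.29. Prim1, the catalytic subunit of primase, stood at -0.96 and -0.16 in the siOrm arrays, against 0.16 and 0.47 in the siControl arrays. Primase lays down the RNA primers that polymerase alpha extends. Prim1 differed by -0.88 (SE 0.29, 95% interval from -1.59 to -0.17), or by -0.48 without siOrm replicate 1. Its partner Prim2 differed by -0.17, and the polymerase alpha subunits Pola1 and Pola2 by -0.24 and -0.16.

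Polymerase delta copies the lagging strand and polymerase epsilon the leading strand. Pold3, an accessory subunit of polymerase delta, stood at -0.43 and -0.13 in the siOrm arrays, against 0.13 and 0.41 in the siControl arrays. Its difference was -0.55 (SE 0.18), and both of its probe sets were alike, at -0.57 and -0.52. The catalytic subunit Pold1 and the accessory subunit Pold2 differed by -0.28 and -0.31, with both siOrm arrays close together and below. Pole, the catalytic subunit of polymerase epsilon, differed by -0.38, and Pole2 by -0.33, again with both siOrm arrays below. Pole3, a histone-fold subunit that also serves in a chromatin remodelling complex, differed by -0.060 (95% interval from -0.40 to 0.28), and its 3 probe sets did not share a sign.

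**Figure D3:**
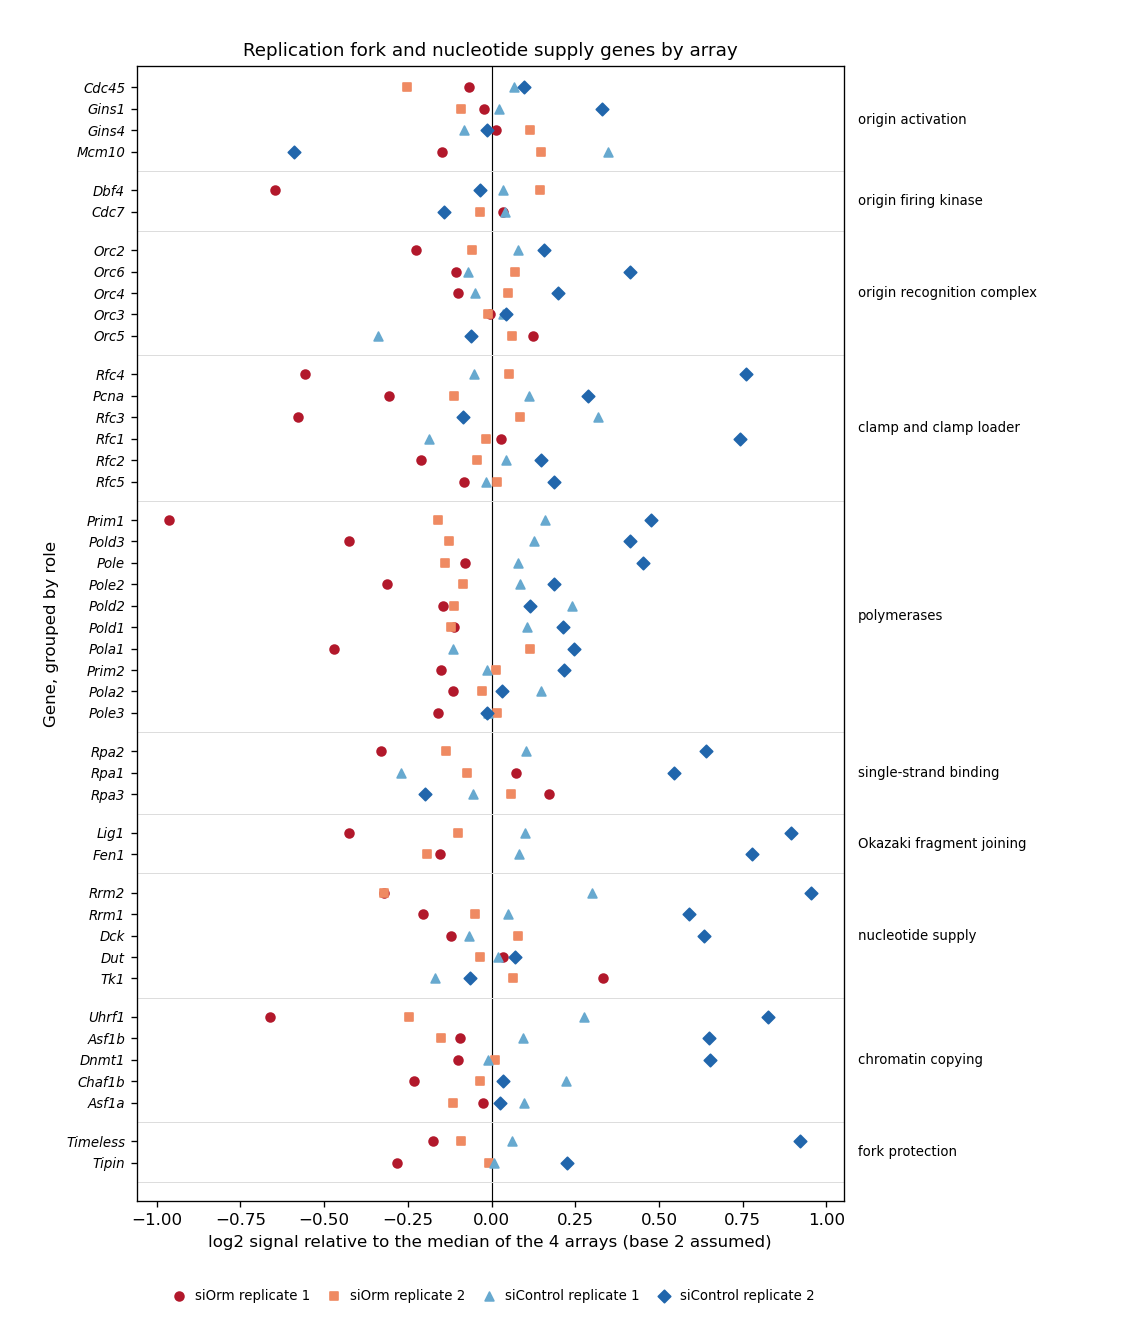
Log2 signal relative to the median of the 4 arrays (horizontal axis) for each of the 44 genes (rows, grouped by role and sorted by difference within a role), with red circles and orange squares for the siOrm arrays and light blue triangles and dark blue diamonds for the siControl arrays. In 24 rows both siOrm symbols lie left of both siControl symbols, and siControl replicate 2 is the rightmost symbol in 31 rows.

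Single-stranded DNA at the fork is coated by replication protein A, a complex of Rpa1, Rpa2 and Rpa3. The 3 subunits did not share a sign. Rpa2 stood at -0.33 and -0.14 in the siOrm arrays, against 0.10 and 0.64 in the siControl arrays, a difference of -0.61 (SE 0.21), or -0.34 without siControl replicate 2. Its probe sets gave -0.60 and -0.61. Rpa3 stood at 0.17 and 0.057 in the siOrm arrays, against -0.057 and -0.20 in the siControl arrays, a difference of 0.24 (SE 0.14) with both siOrm arrays above. Rpa1 was highest in siControl replicate 2 (0.54) and lowest in siControl replicate 1 (-0.27), so its difference of -0.14 became 0.27 without siControl replicate 2.

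Fen1 cuts the flap left at the end of each Okazaki fragment, and Lig1 seals the nick. Lig1 stood at -0.43 and -0.10 in the siOrm arrays, against 0.10 and 0.89 in the siControl arrays. Fen1 stood at -0.15 and -0.19 in the siOrm arrays, against 0.082 and 0.78 in the siControl arrays. Both were high in siControl replicate 2 and lower in each siOrm array than in each control array. Lig1 differed by -0.76 (SE 0.28) and Fen1 by -0.60 (SE 0.24). Without siControl replicate 2 these were -0.36 and -0.26. The 2 probe sets of Fen1 gave unequal differences, -0.94 and -0.27, and by their names both can bind more than 1 transcript.

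Nucleotide supply divided by gene. Ribonucleotide reductase makes deoxynucleotides from ribonucleotides, with Rrm1 as its large subunit and Rrm2 as the small subunit that is made in S phase. Rrm2 (chromosome 12, 24708254 to 24714146 of GRCm38.p6) stood at -0.32 and -0.32 in the siOrm arrays, against 0.30 and 0.96 in the siControl arrays. The siOrm arrays gave almost the same value and lay well below the controls, which were further apart. The difference was -0.95 (SE 0.23, 95% interval from -1.53 to -0.37, unadjusted p = 0.00737, limma), a 1.93-fold lower signal if the base is 2, and it was -0.62 without siControl replicate 2. Its 3 probe sets gave -1.18, -1.15 and -0.52. Rrm1 stood at -0.20 and -0.048 in the siOrm arrays, against 0.048 and 0.59 in the siControl arrays, a difference of -0.45 (SE 0.21), or -0.17 with siControl replicate 2 left out. Tk1, the thymidine kinase of the salvage pathway, went the other way, at 0.33 and 0.064 in the siOrm arrays, against -0.17 and -0.064 in the siControl arrays. Its difference of 0.32 (SE 0.15) was the highest of the 44 genes (0.18 without siOrm replicate 1), and it is given in full because it was singled out after its values were seen. Dut, which removes dUTP, and Dck, which salvages deoxycytidine, differed by -0.045 and -0.31, with overlapping arrays.

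Genes that rebuild chromatin behind the fork held the lowest difference of the 44. Uhrf1 binds hemimethylated DNA and brings in Dnmt1, the enzyme that copies methylation to the new strand. Uhrf1 (chromosome 17, 56303337 to 56323486 of GRCm38.p6) stood at -0.66 and -0.25 in the siOrm arrays, against 0.28 and 0.83 in the siControl arrays. All arrays were well apart, with both siOrm arrays below. The difference was -1.01 (SE 0.24, 95% interval from -1.60 to -0.41, unadjusted p = 0.00673, limma). Leaving out siControl replicate 2 gave -0.73, and leaving out siOrm replicate 1 gave -0.80. Its 2 probe sets had the same sign but unequal size, -1.69 and -0.32. Dnmt1 differed by -0.37, or by -0.035 without siControl replicate 2, where it stood at 0.65, its only value above 0.1.

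The histone chaperones Asf1a and Asf1b hand new H3 and H4 to chromatin assembly factor 1, of which Chaf1b is a subunit. Asf1b, the form tied to proliferating cells, stood at -0.094 and -0.15 in the siOrm arrays, against 0.094 and 0.65 in the siControl arrays, a difference of -0.49 (SE 0.21) that was -0.22 once siControl replicate 2 was left out. Asf1a differed by -0.13 and Chaf1b by -0.26, and all of these had both siOrm arrays below. Timeless and Tipin form the complex that keeps helicase and polymerase together when a fork slows. Timeless stood at -0.18 and -0.091 in the siOrm arrays, against 0.061 and 0.92 in the siControl arrays. Tipin stood at -0.28 and -0.0066 in the siOrm arrays, against 0.0066 and 0.23 in the siControl arrays. Both were separated by group, with differences of -0.62 (SE 0.29) and -0.26 (SE 0.16). The probe sets of Timeless gave -0.79 and -0.46, and in the latter the arrays of the groups overlapped. The difference of Timeless was -0.19 without siControl replicate 2, the array that held its only value above 0.1. That of Tipin was -0.15 without the same array and -0.12 without siOrm replicate 1.

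**Figure D4:**
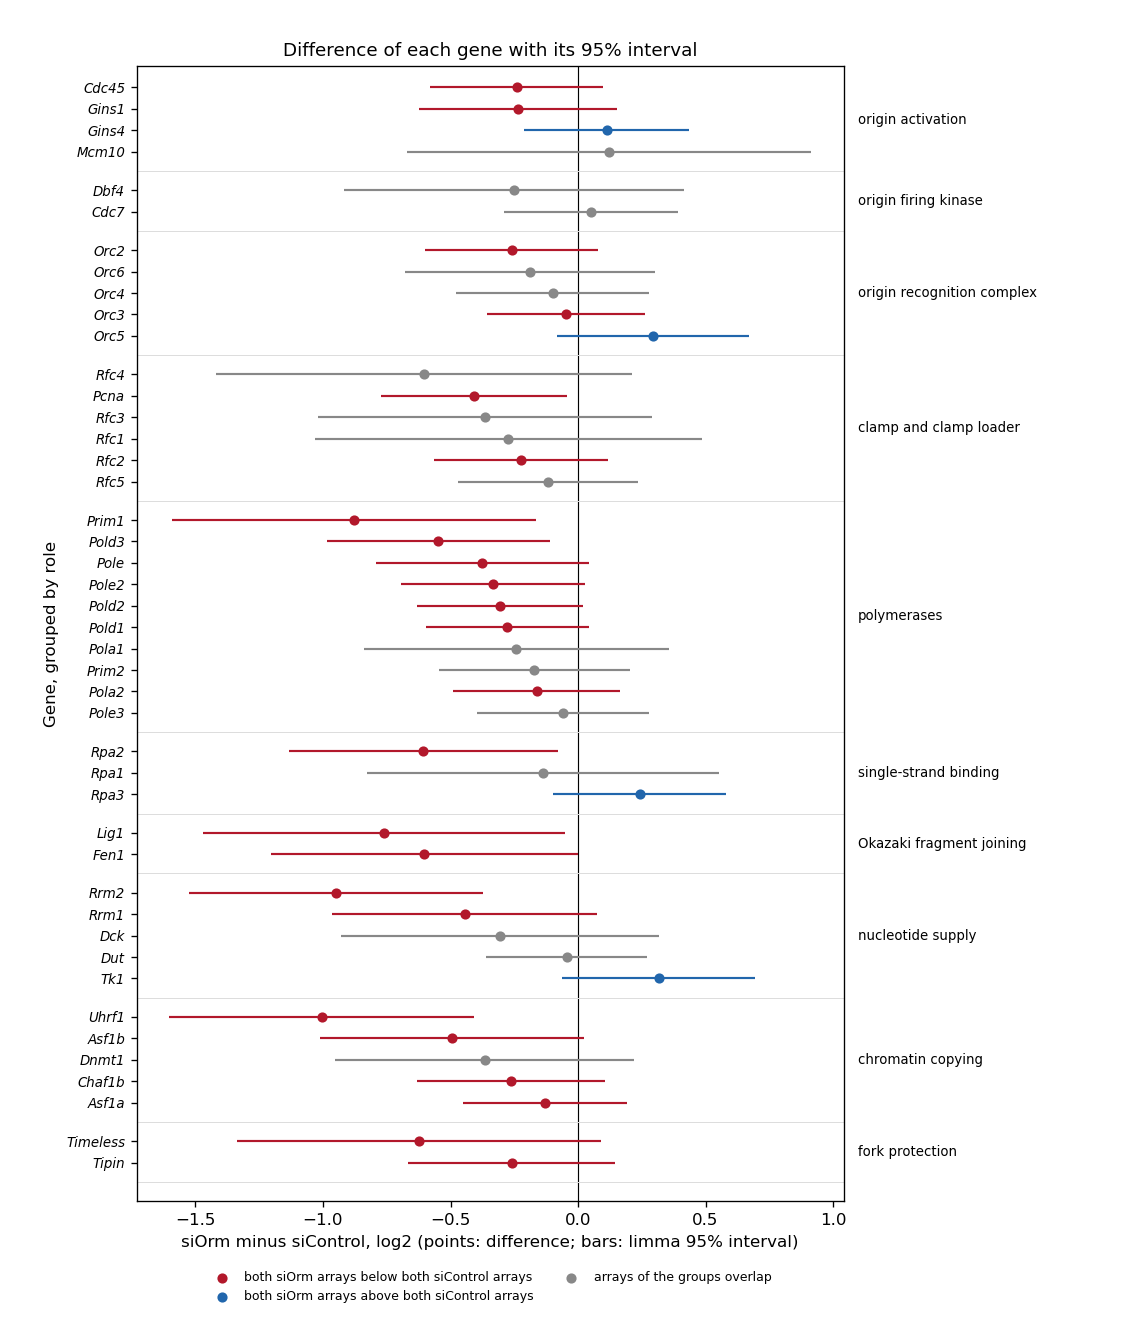
Difference between siOrm and siControl (points, log2, horizontal axis) with its limma 95% interval (bars) for each of the 44 genes (rows). Red marks the 24 genes separated below, blue the 4 separated above and grey the 16 with overlap; the intervals of 7 genes, all negative, leave out 0.

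Of the 44 genes, 22 were measured by 2 or 3 probe sets, which gives a second reading of the same RNA. In 19 of the 22 all probe sets had a difference of the same sign. The exceptions were Rfc1, Pole3 and Orc3. Of the 73 probe sets in all, 61 had a negative difference. The same counts were not made over all genes and probe sets of the arrays. Agreement between probe sets of 1 gene speaks to the probes and not to the spread between mice.

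**Figure D5:**
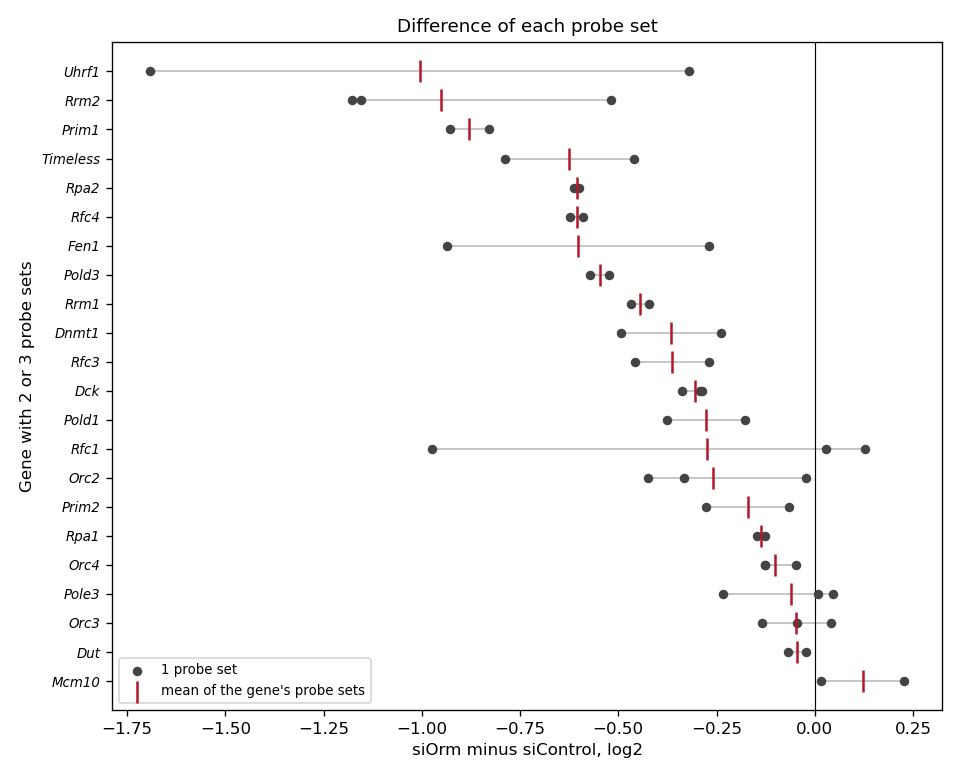
Difference between siOrm and siControl (horizontal axis, log2) for every probe set (grey points) of the 22 genes with more than 1, with the gene's mean as a red tick. Uhrf1, Rrm2, Fen1 and Rfc1 have the widest ranges, and the probe sets of Rfc1, Pole3 and Orc3 fall on both sides of 0.

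Promoters were searched for sequence words that these genes share. The RefSeq table of GRCm38.p6 held windows from 250 bases before to 50 after the start for 38 of the 44 genes. The E2F words searched on both strands were TTTCCCGC, TTTCGCGC, TTTGCCGC and TTTGGCGC. At least 1 was found for 9 of the 38 (23.7%), against 4.37% of the 8767 array genes with a window. The 9 were Dnmt1, Lig1, Orc3, Pola1, Pold1, Pold3, Pole2, Rfc3 and Uhrf1. Of the 20 genes separated below, 6 held an E2F word, and of the other 18, 3 did. These counts are too small to compare, and the same split was not made over all array genes. CCAAT, the word bound by NF-Y, was found for 20 of the 38 (52.6%), against 42.2% of array genes, and TTTGAA, the core of the element found in many mitotic genes, for 8 (21.1%), against 14.6%. A match is a description of the letters and was not tied to binding here.

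Printed are the windows of Uhrf1, Rrm2 and Pold3, the genes with the smallest unadjusted p, and of Tk1, which had the highest difference. They are read 5′ to 3′ on the gene's strand, with E2F words and CCAAT in capitals; no 2 of these words overlapped. For Uhrf1, which has 2 windows, the one with the E2F word is shown. That window lies inside the gene span given above, so its start is an internal one.
Uhrf1, chr17:56304063-56304362, plus strand: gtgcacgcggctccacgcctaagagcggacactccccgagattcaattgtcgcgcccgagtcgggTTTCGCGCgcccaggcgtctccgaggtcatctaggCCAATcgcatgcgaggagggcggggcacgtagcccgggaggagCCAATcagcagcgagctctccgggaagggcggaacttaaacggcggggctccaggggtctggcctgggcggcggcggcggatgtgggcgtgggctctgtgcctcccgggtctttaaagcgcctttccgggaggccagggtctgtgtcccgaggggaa
Rrm2, chr12:24708004-24708303, plus strand: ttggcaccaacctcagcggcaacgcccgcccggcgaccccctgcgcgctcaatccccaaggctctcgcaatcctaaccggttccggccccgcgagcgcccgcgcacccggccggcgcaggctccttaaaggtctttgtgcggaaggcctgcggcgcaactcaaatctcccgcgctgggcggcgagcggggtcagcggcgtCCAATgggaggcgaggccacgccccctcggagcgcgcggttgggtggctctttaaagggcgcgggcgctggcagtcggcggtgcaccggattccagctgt
Pold3, chr7:100121453-100121752, minus strand: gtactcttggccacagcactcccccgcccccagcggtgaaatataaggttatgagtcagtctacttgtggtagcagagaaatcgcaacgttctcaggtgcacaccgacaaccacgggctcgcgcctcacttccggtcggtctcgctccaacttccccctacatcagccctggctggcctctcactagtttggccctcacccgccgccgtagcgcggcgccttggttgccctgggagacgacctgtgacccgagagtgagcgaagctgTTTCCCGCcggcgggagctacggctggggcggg
Tk1, chr11:117825965-117826264, minus strand: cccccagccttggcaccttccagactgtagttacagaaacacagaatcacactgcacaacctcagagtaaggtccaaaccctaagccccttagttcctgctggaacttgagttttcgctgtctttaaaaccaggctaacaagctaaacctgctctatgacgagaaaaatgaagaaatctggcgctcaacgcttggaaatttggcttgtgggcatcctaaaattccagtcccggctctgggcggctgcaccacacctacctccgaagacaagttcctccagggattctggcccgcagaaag
Uhrf1 held the E2F word TTTCGCGC 185 bases before this internal start and CCAAT 150 and 107 bases before it. Rrm2 held CCAAT 50 bases before the start, and Pold3 held TTTCCCGC from base 18 after it. The window of Tk1 held neither. Its start is an internal one too, since the gene span (117815519 to 117826087) runs past it on the upstream side. Words around the outer end of Tk1 were therefore not described. Prim1, the next gene by unadjusted p, held CCAAT 9 bases before the start and no E2F word, and its window is not printed.

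Other genes of the same pathways are given for comparison, by lists chosen with earlier results known. Of the origin licensing list, whose products load the helicase before S phase, 9 of 10 genes were measured, 7 (77.8%) were separated below and 0 above, where 15.3% of all genes were separated below and 17.0% above, and the median difference was -0.74. Mcm5, Mcm4, Mcm6 and Mcm7, subunits of the helicase ring, differed by -1.28, -1.57, -1.52 and -0.58. Without siControl replicate 2 Mcm4 was -0.95 and Mcm6 -0.96, and without siOrm replicate 1 Mcm7 was -0.37. Of 23 further fork genes measured out of 35 listed, 7 (30.4%) were separated below and 2 (8.70%) above, against the same 15.3% and 17.0% of all genes, with a median of -0.21. Top2a, the topoisomerase that untangles sister chromatids, differed by -0.37, and Wdhd1, which ties polymerase alpha to the helicase, by -0.33. Dtl, which directs the licensing factor Cdt1 to degradation, differed by -0.75, and Mms22l, which acts at stalled forks, by -0.45. Both were smaller without siControl replicate 2, at -0.27 for Dtl and -0.20 for Mms22l. The sign of Top2a depended on its probe sets, with 0.075 when probe sets that can bind several transcripts were left out.

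The remaining nucleotide synthesis genes, 34 of 43 listed, were split evenly. Of these, 9 (26.5%) were separated below and 9 (26.5%) above, against 15.3% and 17.0% of all genes, and the median difference was 0.0090, against 0.0080 for all genes. Rrm2b, the small reductase subunit induced by p53, differed by 0.44, opposite in sign to Rrm2. Its values were 0.13 and 0.38 in the siOrm arrays, against -0.13 and -0.25 in the siControl arrays. Cad, which carries out the first steps of pyrimidine synthesis, differed by -0.72, Dtymk, the thymidylate kinase, by -0.36, and Shmt1, a folate enzyme, by 0.36. Without siOrm replicate 1 Cad was -0.32 and Shmt1 0.16, and without siControl replicate 2 Dtymk was -0.17. Of 27 E2F and G1/S genes measured out of 31 listed, 11 (40.7%) were separated below and 4 (14.8%) above, against 15.3% and 17.0% of all genes, with a median of -0.18. Among them E2f8, an E2F repressor, differed by -0.85, cyclin A gene Ccna2 by -0.82, the cell cycle inhibitor gene Cdkn1a by -0.60 (-0.30 without siControl replicate 2) and the pocket protein gene Rbl2 by 0.34. In none of these lists did a gene pass the test over all genes (limma, adjusted p = 0.994 for each gene named).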

How the data were processed

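RNA was measured on single-colour arrays, Affymetrix Mouse Genome 430A 2.0 per the series text, of mouse liver, with 2 siOrm and 2 siControl samples; groups and replicate numbers came from the titles. The deposited table held 18852 probe sets as log2 signal with the median of the 4 arrays subtracted per probe set (the largest row median was 4.8e-07). Base 2 is assumed; natural logarithms would make differences 1.44 times larger in log2 units. What software, normalization and probe set filter made it is not given in the sources used here. Dim probe sets could not be filtered, and the number of arrays limits precision.

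Probe sets were named through the platform annotation: 17209 had 1 symbol, 564 several, 1044 none, and 35 were controls. Genes were means of their probe sets. limma 3.58.1 in R 4.3.3 (lmFit, eBayes with a constant prior of 3.60 degrees of freedom beside 2 residual ones) tested siOrm minus siControl two-sided, with Benjamini-Hochberg adjustment at 0.05, after a check on simulated data. The members and lists were chosen with earlier results of these data known. All 44 measured members are accounted for; values of all arrays are printed for members with an unadjusted p under 0.05 and for the 2 largest differences of each role, and from other lists the 4 genes with the smallest p. Alternatives were a prior with a trend, quantile normalization, array medians subtracted, the median of probe sets, leaving out probe sets that can bind several transcripts, leaving out each array, and the replicate number as a block. The trend and the quantile normalization worked on the centred values, so neither drew on signal levels.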

Additional observations from a re-analysis of the deposited data

How the results depend on the processing

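The count of genes passing the test was 0 each way (limma; 238 higher and 282 lower at an unadjusted p under 0.05). It was 3 higher and 8 lower, none of them among the 44 genes, with a variance prior whose trend follows centred means and not signal levels. With 1 array left out it ran from 0 to 46 higher and from 0 to 183 lower. Among the 44 genes it ran from 0 to 5 lower, and the 5, called only without siControl replicate 1, were Rrm2, Timeless, Fen1, Lig1 and Uhrf1; 1.68% of all genes were called lower there, in a fit where siControl replicate 2 is the only control and is assumed to vary like the siOrm arrays. With the replicate number as a replicate block, 0 genes were called; same-numbered arrays deviated together with a correlation of 0.132 over genes, and no label says that a number marks a shared animal. The median difference of the 44 genes ran from -0.35 to -0.18 with 1 array left out, and was -0.20 after quantile normalization, -0.27 with array medians subtracted, -0.26 with the median of probe sets and -0.24 over the 39 genes left without probe sets that can bind several transcripts. Signs of single genes turned as follows, and the cause was not tested. Over the fits with 1 array left out, the differences ran from -0.35 to 0.59 for Mcm10, -0.040 to 0.14 for Cdc7, -0.22 to 0.024 for Orc4, -0.43 to 0.053 for Orc6, -0.74 to 0.19 for Rfc1, -0.54 to 0.27 for Rpa1 and -0.66 to 0.045 for Dck, with the sign turned without siControl replicate 2 (for Mcm10 also without siOrm replicate 2, at -0.025). They ran from -0.65 to 0.14 for Dbf4, -0.54 to 0.050 for Pola1 and -0.15 to 0.028 for Pole3, with the sign turned without siOrm replicate 1. With the median of probe sets, Rfc1 stood at 0.032 and Pole3 at 0.007. Leaving out the probe sets that can bind several transcripts put Rfc1 at 0.078, Pole3 at 0.007 and Top2a at 0.075. An exact permutation test of 2 arrays against 2 cannot give a p below 0.333, so none was run.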
